A study of Mus musculus with 22 samples.

Results

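Hox genes encode homeodomain transcription factors that give cells along the body axis their positional identity. In mammals they lie in 4 clusters, Hoxa to Hoxd, and members at the same place in different clusters form a paralog group that descends from one ancestral gene. Low-numbered groups sit at one end of a cluster and are switched on first and furthest forward in the embryo, and high-numbered groups sit at the other end and are switched on later and further back. In the developing kidney the group 11 genes Hoxa11, Hoxc11 and Hoxd11 are needed together for the ureteric bud to form and branch, and the adult organ keeps transcribing many Hox genes. The genes described here were all rows of the deposited count table whose mouse symbol was Hoxa, Hoxb, Hoxc or Hoxd followed by a number, which gave 36 of 32858 listed genes. Of these 36, 31 had 10 or more counts in 5 or more of the 22 libraries and entered the tests, 10 in Hoxa, 8 in Hoxb, 8 in Hoxc and 5 in Hoxd. The reference annotation held 39 such genes, and Hoxc12, Hoxd4 and Hoxd12 were not analysed here.

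Polyadenylated RNA of whole kidneys from 22 male C57Bl6/J mice, 8 to 10 weeks old, was sequenced in 4 groups. Vehicle mice (n = 5) received 15% DMSO, 15% cremophor and 70% saline, and KW6002 mice (n = 6) received 3 mg/kg of KW6002 daily from day -5 to day 7. KW6002, also called istradefylline, is an antagonist of the adenosine receptor A2AR. Cisplatin mice (n = 5) received 6 daily intraperitoneal injections of 3 mg/kg cisplatin, a platinum drug that crosslinks DNA and injures the renal tubules, starting on day 0, and the combination group (n = 6) received both drugs. Kidneys were taken 72 h after the last cisplatin injection. Each library carried its own number in the column labels. This number is called the mouse number here, although the labels do not say what it numbers. Levels are counts per 1000000 (CPM) after scaling with the trimmed mean of M values (TMM), and levels of different genes are compared only as CPM per kilobase of merged exons. The mouse numbers of vehicle replicates 1 to 3 and KW6002 replicates 1 to 3 were in the 300s and all others in the 500s, so both cisplatin groups held mice of the 500s only.

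Totals ranged from 26471762 to 40510754 counts per library. Kidney markers were abundant in each group, and proximal tubule markers summed to between 41108 and 46053 CPM in vehicle kidneys and between 4065 and 6696 CPM in cisplatin kidneys. Markers of other cells moved with treatment in the same libraries. The summed level of 7 urothelium markers ranged from 5.93 to 32.1 CPM in vehicle, 205 to 355 CPM in cisplatin and 48.3 to 102.2 CPM in combination kidneys, and 6 of the 7 were higher in cisplatin than in vehicle kidneys. Their median log2 fold change was 1.91, and the sums are weighted to the most abundant markers. Fibroblast and stroma markers ranged from 252 to 505, 1008 to 1279 and 465 to 826 CPM, with 7 of 9 higher, and injured tubule markers from 73.5 to 122, 1515 to 2665 and 446 to 891 CPM, with 7 of 8 higher. Of all genes tested, 34.5% were higher in cisplatin than in vehicle kidneys at an adjusted p under 0.05. Krt20 is in both the urothelium and the injured tubule list, so these lists are not separate. Collecting duct principal cell markers ranged from 456 to 731, 680 to 967 and 597 to 975 CPM. Fat markers ranged from 327 to 1955 CPM in vehicle, 893 to 1446 CPM in cisplatin and 247 to 652 CPM in combination kidneys. Adrenal markers reached 70.7 CPM in 1 combination library and no more than 3.52 CPM in any vehicle, KW6002 or cisplatin library, and Cyp11b2, an adrenal gene, was at 0 in those 3 groups. Fat markers entered 1 alternative fit, the part of the other cell types in the Hox values below was not tested, and in bulk tissue fewer cells of a type and less RNA per cell cannot be told apart.

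The homeobox is the stretch of a Hox gene that encodes the DNA-binding homeodomain. It is shown for the group 11 genes, of which Hoxa11 and Hoxd11 passed the test after cisplatin and Hoxc11 did not, and for Hoxb9 and Hoxc13, the highest-numbered tested genes of their clusters. Coordinates are GRCm38/mm10, bases are read 5′ to 3′ on the gene's strand from GENCODE M21 transcripts, and the capitals mark the 18 bases of the recognition helix by which each homeobox was located.
Hoxa11 (chr6:52243402-52243581, minus strand): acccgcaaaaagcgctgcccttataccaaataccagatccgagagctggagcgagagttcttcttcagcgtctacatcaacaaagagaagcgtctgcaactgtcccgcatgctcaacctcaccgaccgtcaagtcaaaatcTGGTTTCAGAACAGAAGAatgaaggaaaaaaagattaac
Hoxc11 (chr15:102956480-102956659, plus strand): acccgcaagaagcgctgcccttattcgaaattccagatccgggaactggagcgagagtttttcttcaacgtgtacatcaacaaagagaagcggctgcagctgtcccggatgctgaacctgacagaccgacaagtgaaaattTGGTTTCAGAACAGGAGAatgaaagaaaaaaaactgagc
Hoxd11 (chr2:74683917-74684096, plus strand): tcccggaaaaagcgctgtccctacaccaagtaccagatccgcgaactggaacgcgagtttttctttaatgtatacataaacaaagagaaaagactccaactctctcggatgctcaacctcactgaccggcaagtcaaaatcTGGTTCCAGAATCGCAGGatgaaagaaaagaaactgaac
Hoxb9 (chr11:96274659-96274838, plus strand): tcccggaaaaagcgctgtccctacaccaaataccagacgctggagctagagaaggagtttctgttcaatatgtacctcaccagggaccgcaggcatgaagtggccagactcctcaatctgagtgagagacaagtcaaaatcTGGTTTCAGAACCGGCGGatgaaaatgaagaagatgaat
Hoxc13 (chr15:102927210-102927389, plus strand): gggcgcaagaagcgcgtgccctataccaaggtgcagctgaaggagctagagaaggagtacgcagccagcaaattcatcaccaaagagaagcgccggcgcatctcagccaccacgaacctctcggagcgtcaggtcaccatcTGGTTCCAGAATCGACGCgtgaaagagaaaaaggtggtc
Each homeobox lay within a coding exon and was 180 bases long. Hoxa11 and Hoxc11 shared 156 of 180 bases (86.7%), Hoxa11 and Hoxd11 80.6%, and Hoxc11 and Hoxd11 79.4%. Across groups the shares were lower, with 70.6% for Hoxb9 and Hoxd11, 64.4% for Hoxa11 and Hoxc13 and 57.2% for Hoxb9 and Hoxc13. Over the protein-coding transcripts of each gene, 2 pairs of genes shared a 50-base run, Hoxa6 with Hoxb4 at 3 positions and Hoxb9 with Hoxc9 at 1. Over all annotated exons, Hoxc5 and Hoxc10 also shared 166 bases on the same strand, and Hoxd3 shared 388 bases with a gene not analysed here.

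All 4 clusters were transcribed in the adult kidney. In mm10 coordinates Hoxa occupied chr6:52155590-52260880 (105.3 kb, minus strand), Hoxb chr11:96194316-96368256 (173.9 kb, plus strand), Hoxc chr15:102921103-103036852 (115.8 kb, plus strand) and Hoxd chr2:74668310-74765142 (96.8 kb, plus strand). In vehicle kidneys Hoxb gave 35.3% ± 3.69 (SD, n = 5) of the summed Hox level, Hoxa 27.9% ± 1.71, Hoxd 25.5% ± 1.13 and Hoxc 11.2% ± 1.02. The summed level was 225 ± 26.7 CPM per kb in vehicle, 222 ± 3.28 in KW6002, 226 ± 4.27 in cisplatin and 231 ± 9.53 in combination kidneys, and the group means lay closer together than the vehicle libraries did among themselves. The vehicle libraries split by mouse number, with 198 to 216 CPM per kb in the 300s and 243 and 262 in the 500s, and the cisplatin libraries, all of the 500s, ranged from 222 to 233.

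The genes of groups 6 to 10 carried most of the level. Hoxd8 was the most abundant at 33.1 ± 1.68 CPM per kb in vehicle kidneys, above 92.1% of all genes tested, and Hoxa7 followed at 24.0 ± 0.780. Hoxb6 (16.1 ± 5.64), Hoxd9 (15.8 ± 2.75) and Hoxb7 (15.5 ± 2.03) came next and did not differ from each other beyond their spread. In the run Hoxa10 (12.8), Hoxb4 (12.7), Hoxb8 (12.3), Hoxa9 (11.1), Hoxb9 (10.97) and Hoxc10 (9.33) no gene differed from the next beyond their spread. At the low end were Hoxa11 at 1.11, Hoxa4 at 0.929, Hoxa2 at 0.792, Hoxc11 at 0.672, Hoxd3 at 0.465 and Hoxd11 at 0.417 CPM per kb, and Hoxc13 had no count. By paralog group, from group 2 upward, the leading genes were Hoxb2, Hoxb3, Hoxb4, Hoxa5, Hoxb6, Hoxa7, Hoxd8, Hoxd9, Hoxa10, Hoxa11 and Hoxa13, and by cluster Hoxa7, Hoxb6, Hoxc10 and Hoxd8.

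**Figure D1:**
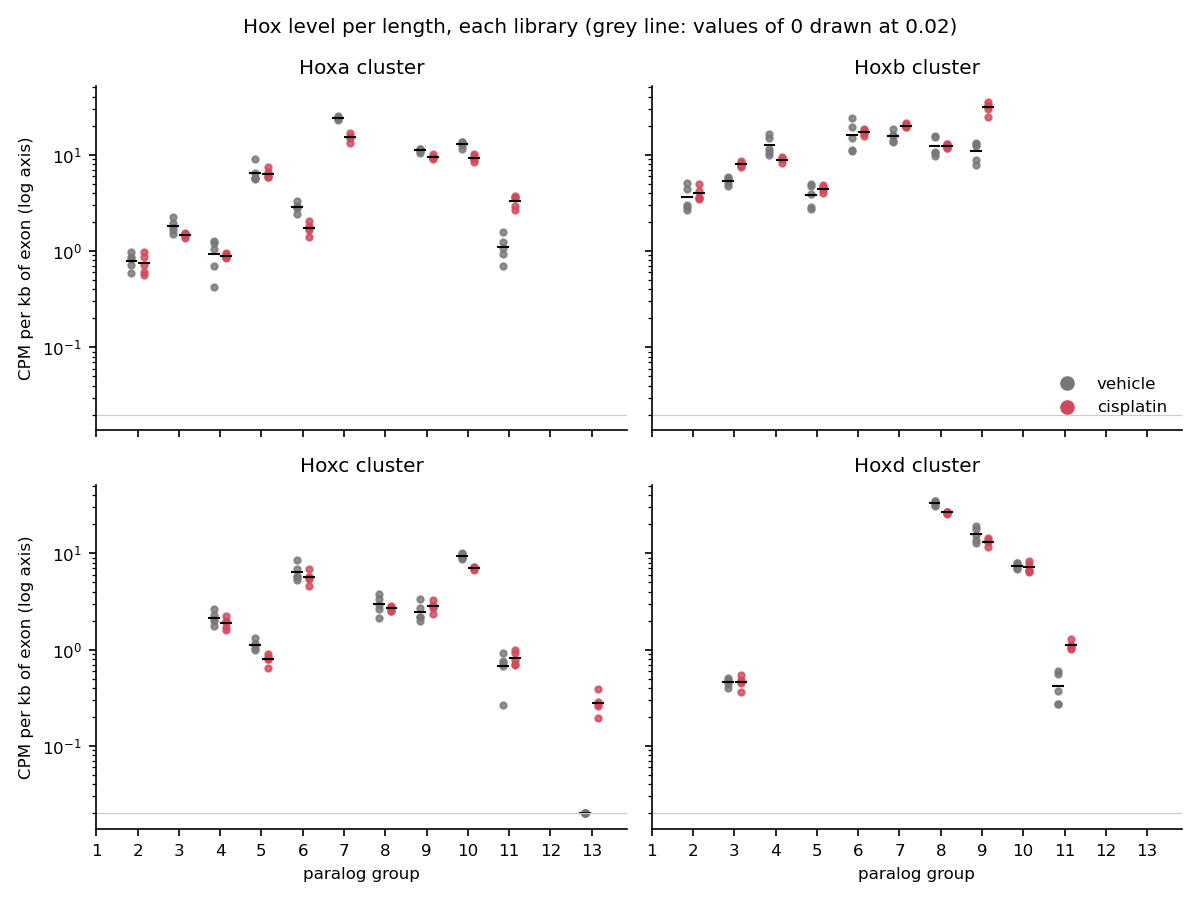
Level of tested Hox genes in CPM per kb of merged exons on a log axis, ordered by paralog group within each cluster, with 1 point per vehicle and cisplatin library a bar at the group mean, and zeros drawn on the grey line. Hoxd8 and Hoxa7 are highest in vehicle kidneys and Hoxc13 has counts only in the cisplatin libraries of these 2 groups.

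Of the remaining 5 Hox genes, all under the count filter, Hoxb1 had at most 5 counts in any library, Hoxd1 at most 6, Hoxb13 at most 1 and Hoxd13 at most 3, the last with counts only in cisplatin kidneys. Hoxa13, a group 13 gene that patterns the hindgut and the lower urogenital tract, had 11, 8, 14, 8 and 4 counts in the cisplatin libraries and at most 6 elsewhere. Its summed counts were 45 in cisplatin, 12 in vehicle, 2 in KW6002 and 3 in combination kidneys. Per unit of depth the cisplatin level was 2.89 times the vehicle level (95% exact interval 1.504 to 6.004), 21.98 times the KW6002 level (5.74 to 187) and 15.7 times the combination level (5.05 to 79.1), intervals that cover counting error only. Vehicle 2 held 6 of the 12 vehicle counts, and without it, a setting added after the data were seen, the first ratio was 4.79 (2.04 to 13.7). DESeq2, which also tested Hoxa13, gave an adjusted p of 0.105 for cisplatin against vehicle.

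The promoters of a highly transcribed and a nearly silent gene of the same cluster are shown because they differ in CG content (RefSeq, GRCm38.p6, 250 bases before to 50 after the start). Capitals mark CG dinucleotides.
Hoxd8 (chr2:74704365-74704664, plus strand): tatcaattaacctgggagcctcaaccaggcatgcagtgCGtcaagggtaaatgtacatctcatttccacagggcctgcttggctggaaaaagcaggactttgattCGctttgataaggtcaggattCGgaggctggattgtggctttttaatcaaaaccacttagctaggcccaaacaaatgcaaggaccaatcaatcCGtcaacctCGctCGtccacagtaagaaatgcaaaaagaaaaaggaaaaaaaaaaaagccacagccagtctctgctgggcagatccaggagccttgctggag
Hoxd13 (chr2:74667975-74668274, plus strand): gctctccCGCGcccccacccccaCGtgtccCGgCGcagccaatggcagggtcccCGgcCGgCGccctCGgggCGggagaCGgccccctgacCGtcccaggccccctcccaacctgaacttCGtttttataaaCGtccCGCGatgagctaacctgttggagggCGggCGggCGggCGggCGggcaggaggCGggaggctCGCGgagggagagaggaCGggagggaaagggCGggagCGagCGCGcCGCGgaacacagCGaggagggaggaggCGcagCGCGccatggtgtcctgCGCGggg
The Hoxd8 window held 6 CG dinucleotides and the Hoxd13 window 37. Other windows of the cluster did not order this way. The windows of Hoxd11, at 0.417 CPM per kb in vehicle kidneys, held 4 and 25, and that of Hoxd9, at 15.8, held 20. Promoters of 20 of the 36 genes were matched, 22 windows in all, with a median of 17.5 CG dinucleotides against 7 over all 32851 promoters. Across those 22 windows the number of CG dinucleotides and the log2 vehicle level had a Pearson's r of -0.47 and a Spearman's rho of -0.36. The levels come from the same 5 vehicle libraries and some windows belong to 1 gene, so this is a description. The letters CCAAT, on either strand, were present in 59.1% of the Hox windows and 37.4% of all windows, GGGCGG in 45.5% and 35.7%, TATAAA in 13.6% of both, and TGATTNAT, a PBX-HOX motif, in 9.1% and 3.2%, these being the windows of Hoxa2 and Hoxd11.

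The comparison of cisplatin with vehicle kidneys asks which Hox genes differ after injury by the drug. Of the 31 tested Hox genes, 17 passed edgeR's quasi-likelihood test at a Benjamini-Hochberg adjusted p under 0.05 (54.8%), 7 higher and 10 lower, against 70.3% of all genes tested (34.5% higher and 35.8% lower). The median log2 fold change was -0.05 over the Hox genes and -0.01 over all genes. At the stricter rule of an adjusted p under 0.01 with a log2 fold change beyond 1, 5 Hox genes passed (16.1%), all higher, against 24.2% of all genes (12.1% higher and 12.1% lower). Groups did not overlap for 7 Hox genes that were higher and 8 that were lower (22.6% and 25.8%), against 27.3% and 27.8% of all genes. The Hox genes thus changed no more often than the rest of the transcriptome, and the changes had both signs. With library size alone as scaling, which moved the median of all genes by 0.21 on the log2 scale, 11 were higher and 5 lower.

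The genes past the stricter rule included Hoxa11, Hoxb9, Hoxc13 and Hoxd11. Hoxa11, a group 11 gene of ureteric bud and limb development, was at 2.46, 1.60, 2.15, 2.82 and 3.61 CPM in the vehicle libraries and 8.28, 8.61, 6.10, 6.66 and 8.04 CPM in the cisplatin libraries. The lowest cisplatin library lay above the highest vehicle library, and the log2 fold change was 1.57 ± 0.17 (SE; edgeR adjusted p = 3.69e-08). Hoxd11, its paralog on chromosome 2, was at 1.59, 1.16, 1.14, 2.36 and 2.54 CPM in vehicle and 4.60, 4.67, 5.49, 4.41 and 4.30 CPM in cisplatin kidneys. These groups did not overlap either, with a log2 fold change of 1.41 ± 0.18 (edgeR adjusted p = 2.5e-07). The remaining group 11 gene, Hoxc11, did not pass the test, at 0.538 to 1.88 CPM in vehicle and 1.39 to 2.02 CPM in cisplatin kidneys.

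Hoxb9, a group 9 gene of the trunk and rib-bearing axis, was at 19.9, 22.5, 33.0, 31.8 and 34.0 CPM in vehicle and 91.3, 77.1, 82.3, 83.3 and 64.0 CPM in cisplatin kidneys. The increase of 1.49 ± 0.13 on the log2 scale (edgeR adjusted p = 5.73e-10) rested on 561 to 3430 counts per library, and its level in cisplatin kidneys was 30.9 ± 3.92 CPM per kb, against 3.30 for Hoxa11 and 1.11 for Hoxd11. Hoxc13, a group 13 gene known for hair and nail keratin expression, had 0 counts in each vehicle and KW6002 library. In the cisplatin libraries it had 36, 28, 25, 24 and 17 counts. Its cisplatin mean of 0.690 ± 0.172 CPM was at least 6.61-fold higher than the 0.104 CPM that 3 counts per vehicle library would give (edgeR adjusted p = 4.39e-06). Hoxc13 passed the count filter only through the cisplatin libraries in which it was high.

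Smaller increases were seen in 2 Hoxb genes. Hoxb3, a hindbrain-patterning gene, was at 21.4, 20.3, 23.7, 24.1 and 24.99 CPM in vehicle and 36.6, 34.9, 31.9, 32.7 and 33.7 CPM in cisplatin kidneys, a change of 0.57 ± 0.08 (log2; edgeR adjusted p = 6.38e-07). Hoxb7 rose by 0.37 ± 0.07 (edgeR adjusted p = 6.82e-05), with a mean of 23.9 CPM in vehicle and 30.9 CPM in cisplatin kidneys.

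The 10 genes that fell included the 2 most abundant. Hoxa7, a trunk-patterning gene, was at 68.9, 65.6, 68.6, 69.5 and 71.8 CPM in vehicle and 37.9, 43.0, 44.3, 44.3 and 48.1 CPM in cisplatin kidneys. The groups stood far apart, with a log2 fold change of -0.66 ± 0.06 (edgeR adjusted p = 4.61e-09). Its neighbour Hoxa6 was about as much lower, at 2.43, 2.12, 2.52, 2.89 and 2.57 CPM against 1.52, 1.46, 1.81, 1.23 and 1.58 CPM (-0.72 ± 0.13, edgeR adjusted p = 5.21e-05). Hoxd8 was at 86.5, 85.6, 91.9, 94.7 and 95.6 CPM in vehicle and 73.4, 74.4, 74.4, 72.4 and 69.4 CPM in cisplatin kidneys, a smaller change without overlap (-0.32 ± 0.06, edgeR adjusted p = 2.53e-05). The other 7 were Hoxb4 (-0.51 ± 0.12), Hoxc5 (-0.49 ± 0.13), Hoxa10 (-0.46 ± 0.06), Hoxc10 (-0.41 ± 0.06), Hoxa3 (-0.31 ± 0.09), Hoxd9 (-0.26 ± 0.09) and Hoxa9 (-0.23 ± 0.05), with edgeR adjusted p between 7.59e-07 and 0.0183. Hoxd9 had the largest of these p-values, its groups overlapped, and its call was lost without vehicle 4, vehicle 5 or cisplatin 4 (adjusted p up to 0.082).

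**Figure D2:**
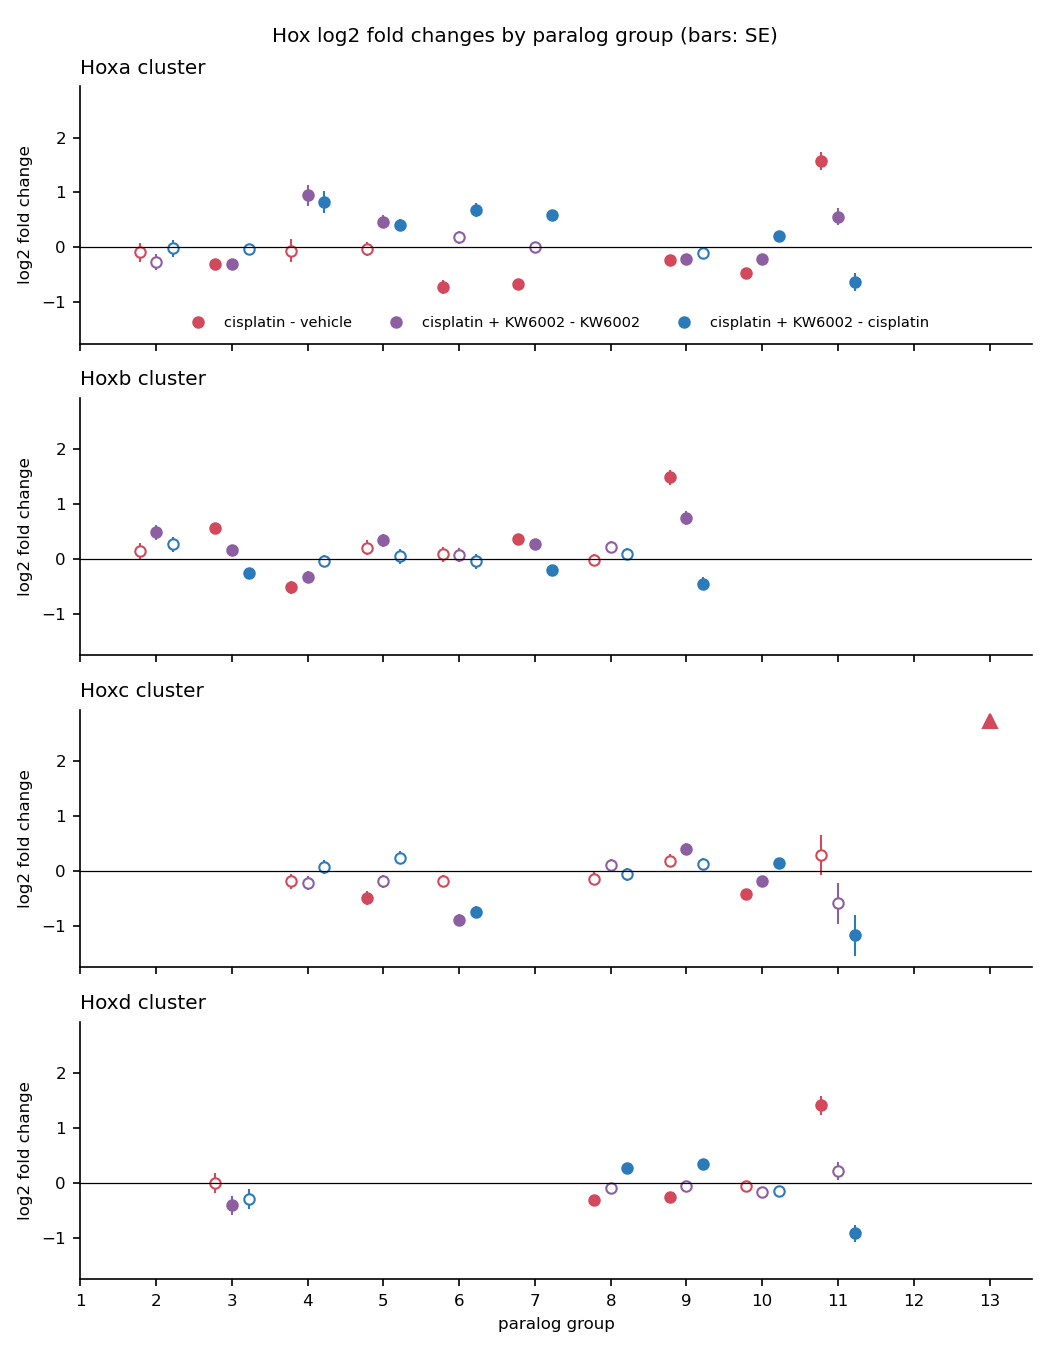
Log2 fold change of tested Hox genes with its standard error, plotted against paralog group with 1 panel per cluster and 1 colour for each of 3 comparisons, where filled points have an adjusted p under 0.05, open points do not, and Hoxc13 is drawn for cisplatin against vehicle only, as a triangle at its lower bound. In cisplatin against vehicle Hoxa11, Hoxb9 and Hoxd11 lie between 1.41 and 1.57, and Hoxa6, Hoxa7 and Hoxb4 lie below 0.

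The position in the cluster can be described from the same fits. In cisplatin against vehicle Hoxb9 and Hoxd11, the highest-numbered tested genes of Hoxb and Hoxd, had the largest fold changes of their clusters, and the next largest were 0.57 for Hoxb3 and 0.00 for Hoxd3 on the log2 scale. In Hoxa the highest-numbered tested gene, Hoxa11, was not separated from the next beyond its standard error, and no longer came first with the series of mouse numbers as a covariate. In Hoxc the highest-numbered tested gene was Hoxc13, whose place was set by the count filter. Groups 9 to 13 held 4 higher and 4 lower genes of 11, groups 4 to 8 held 1 higher and 5 lower of 14, and groups 1 to 3 held 2 higher and 1 lower of 6, so that Hoxa9 and Hoxa10 fell beside Hoxa11, which rose. As a share of the summed Hox level, group 9 went from 17.9% in vehicle to 24.9% in cisplatin kidneys and group 11 from 0.966% to 2.31%, while group 8 went from 21.6% to 18.3% and group 10 from 13.2% to 10.4%. Within group 9 Hoxb9 rose, Hoxa9 and Hoxd9 fell and Hoxc9 was not called.

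By cluster, Hoxb gave 31.1%, 32.1%, 35.7%, 38.5% and 39.4% of the Hox level in vehicle replicates 1 to 5 and between 45.4% and 48.0% in the cisplatin libraries. Hoxa gave 25.8% to 29.6% in vehicle and 21.3% to 24.3% in cisplatin kidneys, and Hoxd 24.0% to 26.7% and 20.7% to 22.5%. None of these ranges overlapped. From vehicle to cisplatin kidneys the Hoxb sum went from 80.3 to 105.6 CPM per kb, and Hoxb9 alone from 10.97 to 30.9. Of the 8 tested Hoxb genes 3 were higher, 1 lower and 4 not called, so the share does not describe each gene of the cluster. The combination kidneys lay between for Hoxb at 40.9% ± 0.310 (SD, n = 6), Hoxa at 26.1% ± 0.735 and Hoxd at 24.4%, and were lowest for Hoxc at 8.69% ± 0.414 against 9.70% in cisplatin kidneys.

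**Figure D3:**
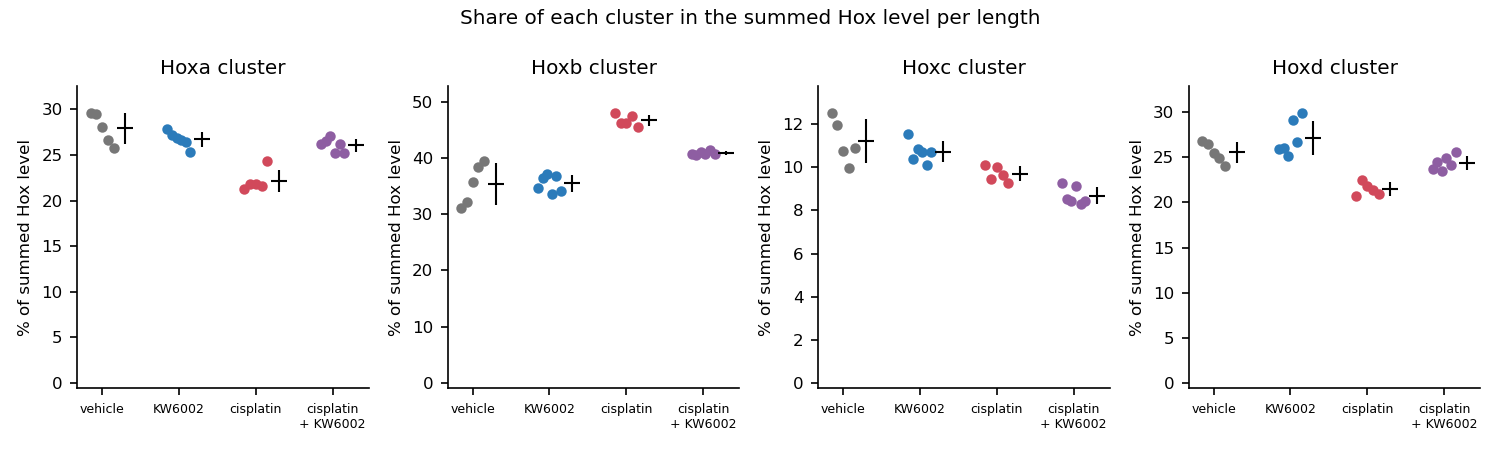
Share of the summed Hox level, in percent of CPM per kb, given by each cluster, with 1 point per library and the group mean ± SD. The Hoxb share is 45.4% to 48.0% in cisplatin libraries and at most 39.4% in vehicle libraries.

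The vehicle libraries did not form 1 level for every gene. Vehicle replicates 1 to 3, numbered in the 300s, had a mean of 24.2 CPM for Hoxb6 and replicates 4 and 5, numbered in the 500s, 42.6 CPM, whereas the KW6002 libraries of these number series had 30.6 and 31.4 CPM. Hoxb2 was at 9.95 and 16.5 CPM and Hoxb8 at 26.8 and 40.9 CPM in the same vehicle subsets. Within the 500s alone, cisplatin against vehicle gave log2 fold changes of 1.22 for Hoxa11 (edgeR adjusted p = 8.42e-06), 1.27 for Hoxb9 (8.41e-08) and 0.93 for Hoxd11 (9.06e-05). Hoxa7 was at -0.71, Hoxa6 at -0.85 and Hoxb4 at -0.82 there. Hoxb6 (-0.35, edgeR adjusted p = 0.00159), Hoxb8 (-0.35, 0.00269) and Hoxc6 (-0.46, 0.00244) passed the test within the 500s and did not over all libraries, where Hoxb6 was at 0.09. Hoxb2, also not called, went from 0.15 by DESeq2 over all libraries to -0.26 within the 500s.

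Comparing combination with KW6002 kidneys gives the effect of cisplatin in mice that received KW6002, in libraries that the comparison above did not use. Here 18 of 31 Hox genes passed the test (58.1%), 11 higher and 7 lower, against 57.9% of all genes (29.2% and 28.7%), and none passed the stricter rule, against 11.9% of all genes. With library size alone 14 were higher and 1 lower, and with the series of mouse numbers as a covariate 6 were higher and 9 lower. Apart from Hoxc13, whose few counts are given below, Hoxa4, a cervical-level patterning gene, was highest by fold at 0.95 ± 0.19 (log2; edgeR adjusted p = 0.000182). Hoxb9 was at 0.75 ± 0.12 (9.63e-06) and Hoxa11 at 0.56 ± 0.16 (0.00442). Others that rose were Hoxb2 (0.49), Hoxa5 (0.47), Hoxc9 (0.40), Hoxb5 (0.34), Hoxb7 (0.28), Hoxb3 (0.17) and Hoxc13, which had 2, 0, 1, 0, 5 and 0 counts in the combination libraries. Hoxc6, a trunk-patterning gene, fell by 0.89 ± 0.11 on the log2 scale (edgeR adjusted p = 2.1e-07). It was joined by Hoxd3 (-0.41), Hoxb4 (-0.32), Hoxa3 (-0.30), Hoxa9 (-0.22), Hoxa10 (-0.21) and Hoxc10 (-0.19). The calls of Hoxc13, Hoxb5, Hoxb3 and Hoxd3 were lost when single libraries were left out, with adjusted p up to 0.088, 0.0598, 0.118 and 0.136. With the series of mouse numbers as a covariate, the calls of Hoxa11 (0.34, adjusted p = 0.0645), Hoxb2 (0.32, 0.0604), Hoxc9 (0.24, 0.0517), Hoxb5 (0.20, 0.207), Hoxb3 (0.14, 0.129) and Hoxc13 (adjusted p = 0.118) were also lost.

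Both cisplatin comparisons, which share no library, called 11 Hox genes, and all 11 had the same sign in both. Hoxa11, Hoxb3, Hoxb7, Hoxb9 and Hoxc13 were among those higher in each, and Hoxa3, Hoxa9, Hoxa10, Hoxb4 and Hoxc10 were lower. These 11, Hoxc13 included, were 35.5% of the Hox genes, against 46.8% of all genes called in both. Hoxc13 passed the count filter only through the cisplatin libraries, so its higher level against vehicle was set by that filter. Its shared sign is therefore no separate support. Both comparisons set mice numbered in the 500s against controls of the 300s and 500s, and of these 11 the calls of Hoxa11, Hoxb3 and Hoxc13 in mice given KW6002 were among those lost with that series as a covariate. With library size alone as scaling, Hoxa3, Hoxa9, Hoxa10, Hoxb4 and Hoxc10 lost their calls in mice given KW6002. Their log2 fold changes there lay between -0.18 and -0.05 (edgeR adjusted p 0.114 to 0.503). In cisplatin against vehicle, Hoxa3 (-0.09, adjusted p = 0.379) and Hoxa9 (-0.02, 0.759) lost theirs too, and Hoxa10, Hoxb4 and Hoxc10 kept them. Hoxa11, Hoxb3, Hoxb7, Hoxb9 and Hoxc13 kept their calls in both comparisons with that scaling. Signs were shared by 23 of 31 Hox genes (74.2%), against 77.0% of all genes, and the change was smaller with KW6002 in 19 (61.3%), against 69.5%.

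**Figure D4:**
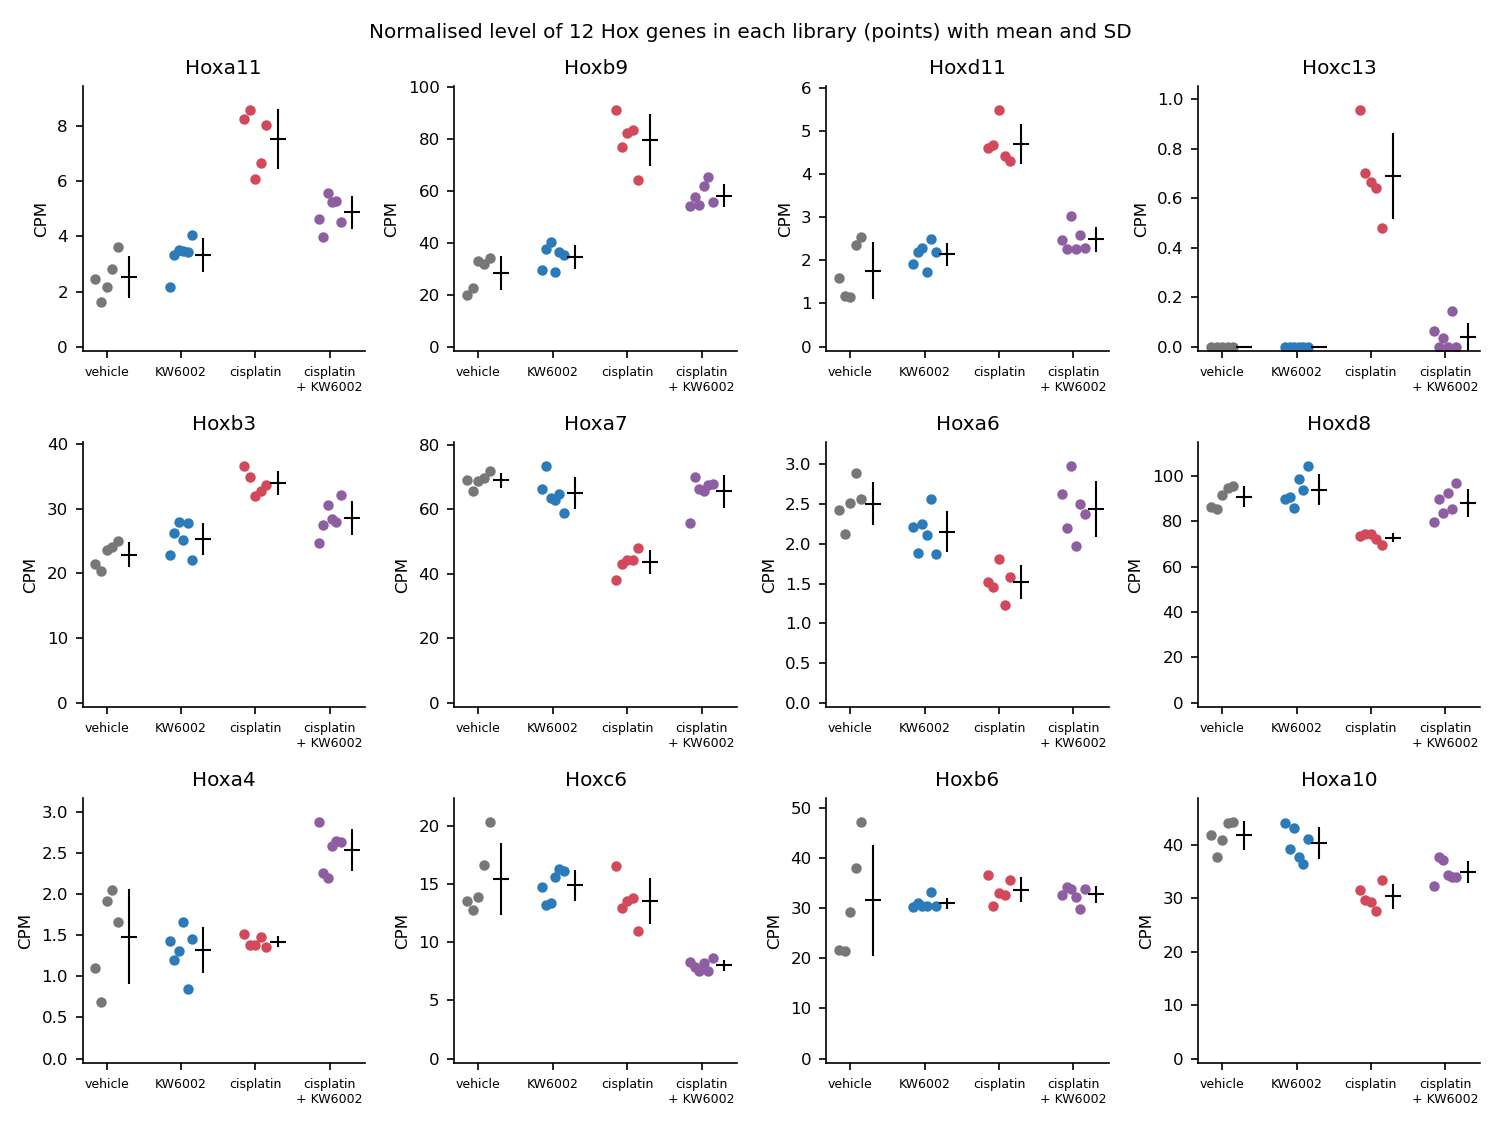
CPM of 12 Hox genes in each library of the 4 groups, with the group mean ± SD. Hoxa11, Hoxb9 and Hoxd11 are highest in cisplatin kidneys, Hoxa7 is lowest there, Hoxa4 is highest and Hoxc6 lowest in combination kidneys, and Hoxb6 spreads most among vehicle libraries.

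The comparison of combination with cisplatin kidneys asks what KW6002 changes in mice given cisplatin. It uses the same cisplatin libraries as cisplatin against vehicle, so opposite signs in these comparisons are not independent results. Of 31 Hox genes, 17 passed the test (54.8%), 8 higher and 9 lower, against 55.6% of all genes (28.5% and 27.1%). With library size alone 6 were higher and 11 lower, and with the mean log2 CPM of the fat markers as a covariate 4 were higher and 9 lower. The stricter rule was passed by 2 Hox genes, Hoxc13 and Hoxc11, both lower, against 10.3% of all genes (5.69% lower). Hoxc13 entered the tests only through the cisplatin libraries, so its lower level in this comparison was set by the count filter. Groups did not overlap for 6 Hox genes that were higher and 6 that were lower, against 19.2% and 18.4% of all genes.

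Genes picked above for a high level in cisplatin kidneys were lower in the combination, in a contrast that used those same cisplatin libraries. Hoxa11 ranged from 3.98 to 5.59 CPM in combination kidneys (median 4.94) against 6.10 to 8.61 CPM in cisplatin kidneys, without overlap (-0.63 ± 0.16 log2, edgeR adjusted p = 0.00183). Hoxd11 ranged from 2.26 to 3.02 CPM (median 2.38) against 4.30 to 5.49 CPM (-0.92 ± 0.16, adjusted p = 5.13e-05). Both ranges lay below the lowest cisplatin library. Hoxb9 ranged from 54.0 to 65.2 CPM (median 56.7), which overlapped the lowest cisplatin library at 64.0 CPM (-0.45 ± 0.12, adjusted p = 0.00267). Hoxc13 summed to 8 counts in the combination and 130 in the cisplatin group, a ratio per depth of 17.0 (95% exact interval 8.40 to 40.3, counting error only; edgeR adjusted p = 2.26e-05). Its direction was set by the count filter, so this p-value is no separate support. Of the 8 counts 5 came from combination replicate 5, and without it, a setting added after the data were seen, the ratio was 37.3 (12.5 to 183).

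The other genes that were lower stood apart from this pattern or changed little. Hoxc11 was at 0.285 to 1.44 CPM in combination kidneys (median 0.626), which overlapped the cisplatin range (-1.17 ± 0.37, edgeR adjusted p = 0.00939). Its call was lost with the fat markers as a covariate (adjusted p = 0.0777). Hoxc6 was at 7.51 to 8.68 CPM (median 8.04) against 10.9 to 16.5 CPM in cisplatin kidneys (-0.75 ± 0.11, adjusted p = 4.05e-06), although cisplatin and vehicle kidneys did not differ past the threshold for this gene. In the combination group Hoxc6 lay below each library of the other 3 groups. Hoxb3 (-0.25) and Hoxb7 (-0.19) were also lower.

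Of the 8 that were higher, Hoxa7 ranged from 55.7 to 70.0 CPM (median 66.8) against 37.9 to 48.1 CPM in cisplatin kidneys (0.59 ± 0.06, edgeR adjusted p = 5.13e-08), and the vehicle libraries from 65.6 to 71.8 CPM. Hoxa6 ranged from 1.97 to 2.98 CPM (median 2.44; 0.68 ± 0.13, adjusted p = 0.000107) and Hoxd8 from 80.0 to 97.1 CPM (median 87.6; 0.27 ± 0.05, adjusted p = 0.000161). None of these 3 overlapped the cisplatin libraries. Hoxa4 ranged from 2.20 to 2.88 CPM (median 2.61) in the combination, 1.36 to 1.52 CPM in cisplatin and 0.682 to 2.04 CPM in vehicle kidneys (0.83 ± 0.20 against cisplatin, adjusted p = 0.000974). It was therefore highest with both drugs, above each library of the other 3 groups. The remaining 4 were Hoxa5 (0.41), Hoxd9 (0.35), Hoxa10 (0.20) and Hoxc10 (0.15). With the fat markers as a covariate all 4 lost their calls, at an edgeR adjusted p of 0.141 for Hoxa5, 0.0761 for Hoxd9 and 0.139 for Hoxa10. The call of Hoxc10 was also lost in 4 fits that each left out 1 library (adjusted p up to 0.0917).

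KW6002 given alone was compared with vehicle to show its effect in uninjured kidneys. No Hox gene passed the test, against 0.0174% of all genes. By edgeR 5 of 31 Hox genes had an unadjusted p under 0.05, against 11.3% of all genes, and DESeq2 also called 0. The highest fold changes were 0.38 for Hoxa11 and 0.30 for Hoxb9 and the lowest was -0.32 for Hoxc8, on the log2 scale.

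The interaction contrast, the effect of KW6002 with cisplatin minus its effect without, tests whether these effects differed. It was past the threshold for 12 Hox genes (38.7%), 7 higher and 5 lower, against 42.4% of all genes (22.6% and 19.7%). The stricter rule was passed by 3, Hoxa4 higher and Hoxa11 and Hoxd11 lower, against 8.51% of all genes (4.21% and 4.29%). With library size alone 4 were higher and 6 lower, and within mice numbered in the 500s 11 were higher and 4 lower, 9 of them among the 12. The 5 with a lower effect under cisplatin were Hoxd11, Hoxa11, Hoxb9, Hoxc6 and Hoxb3, between -1.20 ± 0.24 and -0.40 ± 0.10 (log2; edgeR adjusted p 0.000384 to 0.00366). The 7 with a higher effect were Hoxa4, Hoxa6, Hoxa7, Hoxa5, Hoxa10, Hoxd8 and Hoxc10, between 1.01 ± 0.28 and 0.22 ± 0.08. Of these, 5 lie in the Hoxa cluster, and Hoxa4 to Hoxa7 are consecutive genes of it.

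Combination kidneys also differed from vehicle kidneys, in 19 Hox genes (61.3%), 11 higher and 8 lower, against 59.4% of all genes (29.7% each way). Scaling by library size alone gave 13 higher and 3 lower, the series of mouse numbers as a covariate gave 5 and 8, the fat markers as a covariate also gave 5 and 8, and mice numbered in the 500s alone gave 3 higher and 8 lower, 11 in all, of which 9 were among the 19. Hoxb9 passed the stricter rule, against 13.4% of all genes (5.85% higher), at 1.04 ± 0.12 (log2; edgeR adjusted p = 2.38e-07). Hoxa11 was at 0.94 ± 0.17, and Hoxc6 fell by 0.95 ± 0.11 (adjusted p = 1.51e-07), so these genes differed from the vehicle level with both drugs. Hoxa4 was at 0.77 ± 0.20 over all libraries and 0.45 within the 500s (adjusted p = 0.07), and Hoxd11 at 0.49 and 0.01. The Hoxd11 call was also lost without vehicle 2 or vehicle 3 (adjusted p up to 0.0707).

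Noncoding genes of the clusters were measured in the same libraries. Of 22 in the list, 16 were listed and 9 tested, and in cisplatin against vehicle kidneys 3 were higher, 3 lower and 3 not called, against 70.3% of all genes called. Hoxb5os, transcribed from the strand opposite to the Hoxb genes (chr11:96291024-96306910), had the largest change, from 13.9 ± 1.00 to 3.04 ± 0.670 CPM (302 to 442 counts against 88 to 144; log2 -2.19 ± 0.13, edgeR adjusted p = 1.53e-12), and was at 5.71 ± 1.07 CPM in combination kidneys. Halr1, a noncoding gene outside the Hoxa cluster (chr6:52102949-52113684), fell by 1.77 on the log2 scale (adjusted p = 1.99e-06) and Hoxb3os by 0.63 (5.66e-06). Hotairm1, an antisense RNA of the Hoxa cluster, rose from 2.11 ± 0.211 to 4.80 ± 0.177 CPM (1.18 ± 0.14, adjusted p = 1.62e-07). Hoxa11os rose by 0.66 (adjusted p = 0.00475), as its partner Hoxa11 did. Hoxb3os fell while Hoxb3, whose exons it overlaps, rose. Against cisplatin kidneys the combination was higher for Hoxb5os (0.91, adjusted p = 3.47e-06) and Halr1 (0.97, 0.00217) and lower for Hotairm1 (-0.42, 0.00968), Hoxa11os (-0.46, 0.0396) and Mir196a-1 (-0.59, 0.00638). Hottip had at most 3 counts and Haglr at most 4 in any library.

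The strand setting of the counting was not given in the sources used here. Without it, how reads were assigned, or whether they were counted, is not known where exons of a Hox gene and its antisense partner overlap. This overlap is 52.9% of the merged exons of Hoxb3, 35.0% of Hoxa11 and 27.3% of Hoxb2. On the same strand, Gm28230 overlapped 53.1% of Hoxd3 and Gm28309 10.8% of Hoxd11.

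**Figure D5:**
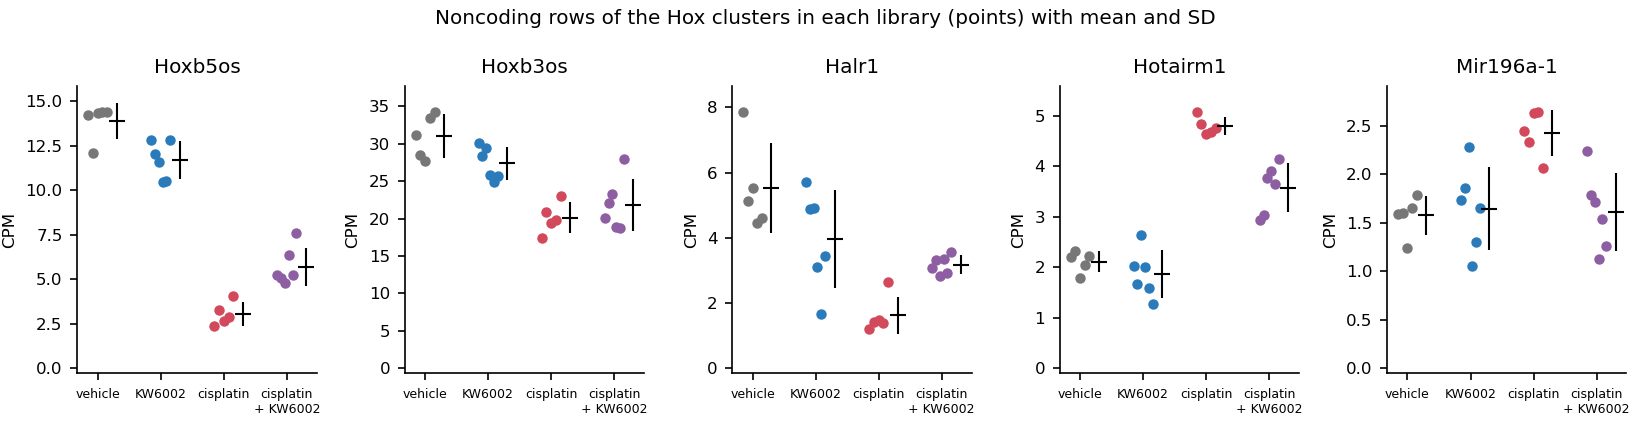
CPM of noncoding genes of the Hox clusters in each library of the 4 groups, with the group mean ± SD. Hoxb5os falls from 13.9 CPM in vehicle to 3.04 CPM in cisplatin kidneys, and Hotairm1 rises from 2.11 to 4.80 CPM.

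The clusters also hold microRNA genes, and miR-196 is known to cleave Hoxb8 mRNA. The mature forms are shown with the seed, bases 2 to 8, in capitals (RefSeq, GRCm38.p6), followed by the sites in the UTRs of Hoxb8 and Hoxa7 (mm10), with the bases in Watson-Crick pairs with miR-196a in capitals and the others, G:U pairs included, in lower case.
miR-196a-5p: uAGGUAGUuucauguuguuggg
miR-196b-5p: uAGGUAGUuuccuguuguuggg
Hoxb8 site (chr11:96284888-96284909, plus strand): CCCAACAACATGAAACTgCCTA
Hoxa7 site (chr6:52215210-52215231, minus strand): aCtActAgCcctAAACTACCTA
Both microRNAs have the seed AGGUAGU. The Hoxb8 site had 21 Watson-Crick and 1 G:U pair over 22 bases, and the Hoxa7 site 14 and 3. The seed match ACTACCT was found in the UTRs of 8 of 35 Hox genes, Hoxa4, Hoxa5, Hoxa7, Hoxa9, Hoxb1, Hoxb6, Hoxb7 and Hoxc8, and in 6.2% of 20515 genes. Counts over the hairpin gene Mir196a-1 rose in cisplatin kidneys, from 1.58 ± 0.202 to 2.43 ± 0.240 CPM (0.62, edgeR adjusted p = 0.00505), but these are reads of polyadenylated RNA and the mature microRNA was not measured. Of the genes with a match, Hoxa7 and Hoxa9 fell, Hoxb7 rose, and Hoxa4, Hoxa5, Hoxb6 and Hoxc8 did not pass the test in that comparison.

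The genes that work with Hox proteins or set their transcription were counted by list. The list of TALE cofactors held 10 genes, most of them for homeodomain proteins that bind DNA together with Hox proteins. Of these 10, 6 were higher and 1 lower in cisplatin than in vehicle kidneys. In combination against cisplatin kidneys 6 were lower and 0 higher, where 27.1% of all genes were lower and 28.5% higher. Pbx4 rose from 1.03 ± 0.307 to 4.67 ± 0.722 CPM (2.19 ± 0.21 log2, edgeR adjusted p = 2.45e-09) and was at 0.829 ± 0.128 CPM in the combination. Meis3 rose by 0.87 (adjusted p = 3.84e-05). Of 6 retinoic acid and retinoid X receptors, through which retinoic acid acts on Hox clusters, 2 were higher and 3 lower. Rarb rose by 1.18 ± 0.13 (adjusted p = 3.78e-08) and Rarg by 0.77 (3.13e-08), and Rxrg (-1.05, 0.028) and Rara (-0.20, 0.0406) fell. The chromatin lists moved in both directions, as the Hox genes did. Polycomb genes, which keep Hox genes silent, were 9 higher and 9 lower of 23, led by Phf19 (1.26) and Phc2 (0.88) and by Cbx8 (-1.03) and Ring1 (-0.87). MLL/Trithorax genes and H3K27 demethylases, which keep Hox genes active, were 1 higher (Kmt2b, 0.30) and 4 lower of 10, led by Men1 (-0.43) and Psip1 (-0.27). Gmnn, which encodes geminin and was the tested gene of the Cdx, Evx and geminin list, fell by 0.32 (adjusted p = 0.0125). Of 14 tested early kidney development genes 2 were higher, Pax8 (0.66) and Wt1 (0.30), and 4 lower, led by Wnt11 (-1.69) and Osr1 (-1.64), an early gene of the embryonic kidney field. In each list these counts stand against the 70.3% of all genes called in this comparison.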

How the data were processed

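Stranded poly(A)-selected RNA libraries (TruSeq) of whole kidney were sequenced. Per the submitters' processing notes and the study's methods, reads were demultiplexed with bcl2fastq 2.17.1.14, aligned with STAR to mm10 and counted with HTSeq 0.6.1p1 in union mode. The table the authors deposited holds raw counts of uniquely aligned reads per Ensembl gene, 1 column per library, and 66 columns without a name or a value were not used. Samples were grouped by GEO's labels, and replicate numbers are those of the labels. No 2 libraries of a group were identical (50 pairs). Genes with 10 or more counts in 5 or more libraries were tested (17255 of 32858, holding 99.95% of the counts), at 26471762 to 40510754 counts per library.

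In R 4.3.3, edgeR 4.0.16 (TMM scaling, quasi-likelihood test, all 22 libraries, 1 coefficient per group) gave each comparison as a contrast, with Benjamini-Hochberg adjustment over all tested genes and an adjusted p under 0.05 as the threshold. DESeq2 1.42.0, other scalings, count filters, covariates, subsets of mice and each library left out were tried as alternatives, and the scripts were tested on simulated counts. Fold changes are log2, standard errors are those of the model, and a gene at 0 in a group was compared with a floor of 3 counts per library. Named are Hox genes past the threshold in any contrast, the most abundant of each cluster and paralog group, those under the filter, and from each list the 2 genes with the largest called change in each direction in cisplatin against vehicle. The Hox genes and gene lists were chosen with earlier results of these data known. Hox promoters and microRNAs are from RefSeq tables (GRCm38.p6). Some items are not reported here, in the text and in the plots, and counts over lists include them.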

Additional observations from a re-analysis of the deposited data

Results flagged for a closer look

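In 5 of the 122 sets of 1 Hox gene and 1 group, the highest or lowest library stood further from its nearest neighbour than Dixon's critical ratio allows, and chance alone marks about 1 set in 20. Hoxa5 was at 17.1 CPM in vehicle 5, against 10.4 to 12.2 CPM in the other vehicle libraries, and at 13.1 CPM in KW6002 5, against 10.6 to 11.5 CPM. Hoxb6 was at 33.2 CPM in KW6002 5, against 30.3 to 30.9 CPM. In the combination group Hoxa7 was at 55.7 CPM in replicate 1, against 65.7 to 70.0 CPM, and Hoxc10 at 16.9 CPM in replicate 4, against 14.2 to 15.1 CPM.

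The effect of KW6002 differed between mice with and without cisplatin in 12 Hox genes, by edgeR's interaction contrast (adjusted p under 0.05, log2 scale). It was lower with cisplatin for Hoxd11 (-1.20), Hoxa11 (-1.01), Hoxb9 (-0.75), Hoxc6 (-0.70) and Hoxb3 (-0.40). It was higher for Hoxa4 (1.01), Hoxa6 (0.90), Hoxa7 (0.67), Hoxa5 (0.50), Hoxa10 (0.25), Hoxd8 (0.23) and Hoxc10 (0.22), and the call of Hoxc10 was lost in 10 fits that left out 1 library (adjusted p up to 0.0798).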

How the results depend on the processing

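No Hox gene past the threshold in a comparison changed direction there in any alternative, while the uncalled Hoxb6 changed sign in cisplatin against vehicle, from 0.09 to -0.35 within the 500s and -0.10 with the series of mouse numbers as a covariate. Leaving out 1 library at a time gave 15 to 19 called Hox genes in cisplatin against vehicle, in combination against KW6002 and in combination against cisplatin, 13 to 19 in combination against vehicle, 11 to 13 in the interaction contrast and 0 to 0 in KW6002 against vehicle. Calls were lost in 86 of 1806 such gene fits and in 92 of 895 under the other settings. The calls kept in every fit that could test them were 12 of 17, 6 of 18, 12 of 17, 6 of 19 and 8 of 12 for cisplatin against vehicle, combination against KW6002, combination against cisplatin, combination against vehicle and the interaction.

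At an adjusted p under 0.01 with a log2 fold change beyond 1, the counts were 5, 0, 2, 1 and 3 in that order, and 0 in KW6002 against vehicle. With mice numbered in the 500s alone, combination against vehicle gave 11 calls. With the longest transcript as gene length, Hoxa gave 33.3% and Hoxd 22.7% of the vehicle Hox level. In combination against vehicle, leaving out single libraries lost Hoxc11 in 16 fits (adjusted p up to 0.125), Hoxc13 in 8 (0.112), Hoxd10 in 7 (0.0999), Hoxb7 in 5 (0.101), Hoxc9 in 4 (0.0856) and Hoxb2 in 3 (0.0608). The cause of these changes was not tested, apart from the smaller number of samples.

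With the replicate number as a block the counts were 17, 16, 17, 17 and 11 in the order above, and 0 in KW6002 against vehicle. Replicate numbers share only a number, since deviations of same-numbered libraries correlated at -0.174 to 0.4 (median 0.013), 7 of 31 pairs exceeded 0.1 and in 10 of 31 comparisons a library was closest to the one with its own number. The interaction could not be fitted on the groups of a single comparison. Members with under 100 counts per library, such as Hoxa4, Hoxa6, Hoxc11 and Hoxc13, carry the most counting error.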
